A study of Brassica napus with 6 samples.

Results

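Glutathionyl-hydroquinone reductases, also called ECM4-like or Xi-class glutathione transferases, were measured in the roots of oilseed rape (Brassica napus) through the Arabidopsis loci AT4G19880, AT5G44000 and AT5G45020. The family was selected on the values of the 3 control and 3 foliar GSH arrays, proposed with earlier results of this contrast in view, and its genes were matched by locus to probes that the annotation of the Arabidopsis ATH1 array pairs with 1 gene. All 3 had such a probe, 1 each, out of 13350 genes with a probe of their own. The probes were 254549_at for AT4G19880, 249075_at for AT5G44000 and 248977_at for AT5G45020. The differences between groups are given below as descriptions, without a test.

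Quinones react readily with glutathione (GSH, the tripeptide thiol), and the products are glutathionyl-hydroquinones. Enzymes of this family, known in most detail from bacterial and fungal proteins, use a cysteine in the active site and another molecule of GSH to release the free hydroquinone. Oxidised glutathione is the other product. In plants, quinones and hydroquinones arise in phenolic, lignin and electron-carrier metabolism, and GSH is also the main soluble thiol store of sulfur that moves between leaves and roots.

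Roots of 4-week-old plants of the cultivar Nourin No.16 were sampled in 3 control and 3 foliar GSH replicates, which the labels call biological replicates. In the foliar GSH group, reduced glutathione at 100 mM in a buffered detergent solution was brushed daily on 3 expanded source leaves of each plant, 50 µL on each leaf, for 4 days. Control plants were left untreated for the same 4 days. The labels give them no brushing with the solution alone, so GSH and the application itself cannot be told apart. No transgene or mutant was involved, and all plants grew in the same kind of nutrient solution.

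The arrays carry Arabidopsis probes, so each probe reads whichever rape transcripts match it. Oilseed rape carries several copies of most Arabidopsis genes, and how many of them a probe detects is not known from these files. The values ran from 5.09 to 11.6 on the deposited log scale, and the lower quartile, median and upper quartile were 5.67, 5.84 and 6.06 on every array. Between arrays a probe typically ranged over only 1.91 millionths of a unit, and the widest range was 6386 millionths. So all differences below are in millionths, counted on the deposited scale, and must not be read as fold changes. The sources used here do not give the log base or the step that reduced the spread, and a size at 1 probe cannot be set against a size at another. To set probes side by side, some differences are also given in within-group SDs. That SD is the spread of the probe between arrays of the same group, pooled over both groups. Of the root markers EXPA7 and EXPA18, expansins of root hairs, the first lay above the upper quartile and the other between the quartiles. The leaf markers LHCB4.1 and RCA lay between the quartiles too, and the other 8 root and 5 leaf markers had no probe of their own.

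AT4G19880 had a higher signal in all 3 foliar GSH arrays than in any control array. Its probe was bright, with a mean of 6.91 that exceeded 96.5% of probes. Relative to the control mean, the controls stood at 16.7, 80.8 and -97.5 millionths for replicates 1, 2 and 3. The foliar GSH replicates stood at 193, 658 and 342 millionths. Replicate 2 was thus the highest of both groups, and the lowest GSH array was 112 millionths above the highest control. The means differed by 398 millionths (SE 133 from the limma fit over all probes), with SDs of 90.3 in the controls and 237 after GSH (n = 3 each). In within-group SDs the difference was 2.21, and 6.59% of probes had a larger one in either direction. In such bulk RNA, a change in the share of a cell type and a change in RNA per cell cannot be told apart. The root hair marker EXPA7 differed by -27.3 millionths (-0.97 within-group SDs) and EXPA18 by -2.12 (-0.31 SDs). The leaf marker LHCB4.1 differed by 0.280 millionths (1.47 SDs) and RCA by -0.0573 (-0.51 SDs). The groups overlapped at all 4 markers, and their part in the values of the family was not tested.

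AT5G44000 had a higher mean after GSH, but its groups overlapped. The mean signal was 6.09, just above the upper quartile. The controls stood at 0.458, -0.279 and -0.178 millionths from their mean. The foliar GSH replicates stood at 2.20, 1.02 and 0.0527 millionths. Replicates 1 and 2 were above every control, and replicate 3 lay below control replicate 1. The difference of the means was 1.09 millionths (SE 0.615), with SDs of 0.400 and 1.08 (n = 3 each), or 1.35 within-group SDs, and 19.4% of probes had a larger difference on that scale. The overlap rested on control replicate 1 and foliar GSH replicate 3, and without either of them all GSH arrays lay above all controls. With fewer arrays that is more common. Over all probes it held at 9.64% without control replicate 1 and at 12.1% without foliar GSH replicate 3, against 5.63% with all arrays.

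AT5G45020 also overlapped between the groups, and its probe was dim. The mean signal of 5.63 lay under the lower quartile, and whether a probe this dim reports expression was not tested. The controls stood at 0.684, -0.321 and -0.363 millionths from their mean. The foliar GSH replicates stood at 0.0740, 2.98 and 0.643 millionths. Replicate 2 was high, while the other GSH arrays lay within the range of the controls. The means differed by 1.23 millionths (SE 0.875), with SDs of 0.593 and 1.54 (n = 3 each), or 1.06 within-group SDs, and 28.5% of probes had a larger one. Its overlap rested on control replicate 1, without which all GSH arrays lay above the controls, as they then did at 9.64% of all probes.

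**Figure D1:**
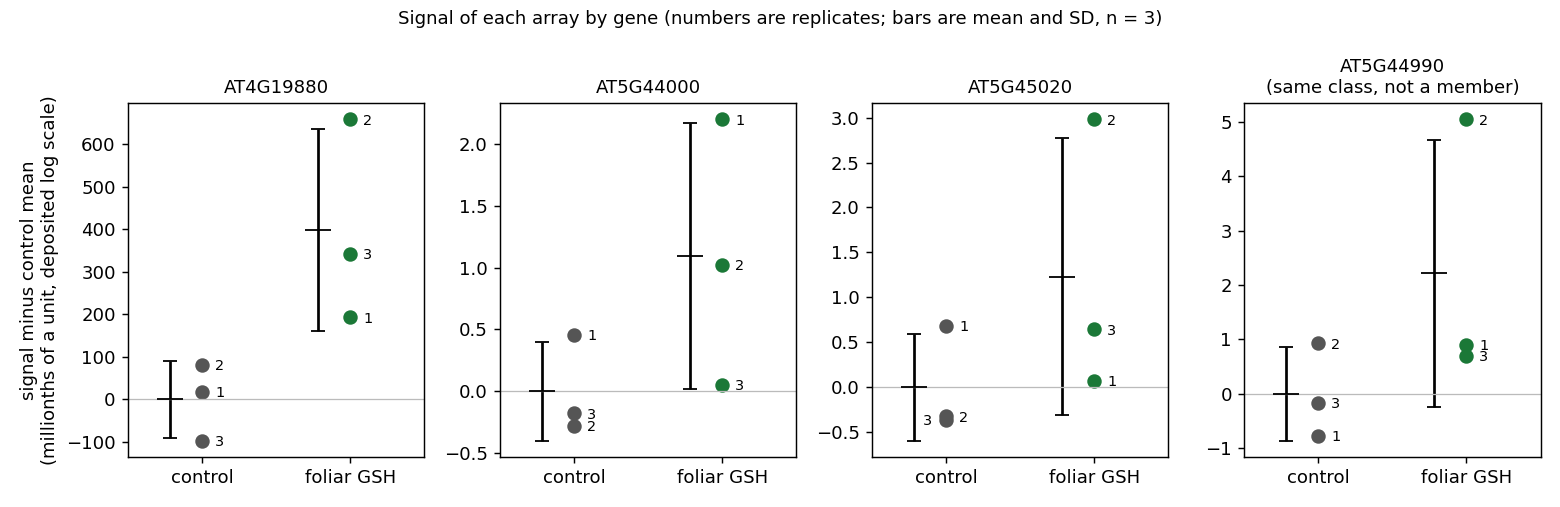
Signal of each array minus the control mean of the same gene, in millionths on the deposited log scale, for the 3 listed genes and AT5G44990; numbers beside the points are replicates, and bars give the mean and SD of 3 arrays. The scales differ between panels; for AT4G19880 the GSH arrays sit at 193 to 658, above the highest control at 80.8, while in the other panels the groups overlap.

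All 3 genes had a higher mean after foliar GSH, as did 51.9% of all probes, and at 1 of the 3 the groups did not overlap. Over all 22746 probes the groups did not overlap at 11.4%, with all GSH arrays above the controls at 5.63% and all below at 5.75%. Since the genes were listed with these values known, the counts describe the family and support nothing. By limma no probe of the array passed a Benjamini-Hochberg adjusted p of 0.05 (0% of 22746), these 3 included. At an unadjusted p under 0.05 limma gave 1535 probes, or 6.75%.

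AT4G19880 differed from the other family probes in how far it varied. Its 6 arrays covered 755 millionths, and 27 of all probes covered more. The 99th percentile of the range was 91.9 millionths. AT5G44000 covered 2.48 millionths, wider than 58.4% of probes, and AT5G45020 covered 3.34 millionths, wider than 67.5%. These are properties of the deposited values, since an unknown scale of each probe enters its range.

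**Figure D2:**
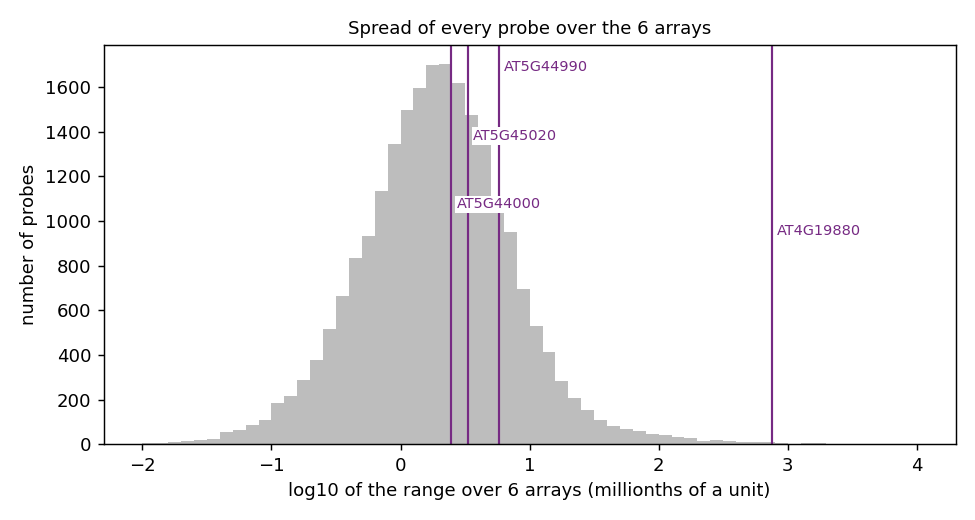
Number of probes by the range of their values over the 6 arrays, in millionths of a unit on a log10 axis, with vertical lines for the 3 listed genes and AT5G44990. AT4G19880, at 755 millionths, lies in the far right tail, and the other 3 lie at 2.48 to 5.81 millionths near the bulk of the probes.

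How far single arrays carried the differences varied between the genes. For AT4G19880 the difference ran from 268 millionths without foliar GSH replicate 2 to 500.0 without foliar GSH replicate 1. For AT5G44000 it ran from 0.538 without foliar GSH replicate 1 to 1.61 without foliar GSH replicate 3. For AT5G45020 it was 0.359 without foliar GSH replicate 2 and reached 1.81 without foliar GSH replicate 1. With all arrays the difference was thus 2.03 times that without 1 array for AT5G44000 and 3.44 times for AT5G45020, and the array was not the same for both.

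The level of the arrays mattered for the same pair. Centring each array on its median added 0.598 millionths to every difference, which gave 1.69 for AT5G44000 and 1.83 for AT5G45020 but left AT4G19880 at 398. After quantile normalization AT4G19880 differed by 227 millionths and its groups were no longer separate. GSH replicates 1 and 3 then had the same value as control replicate 2, at 129 millionths above the control mean. Under that setting AT5G44000 turned to -0.639 millionths, and AT5G45020 had the same value on all arrays. Only 2688 probes kept any difference there, since the other probes held the same rank on every array.

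**Figure D3:**
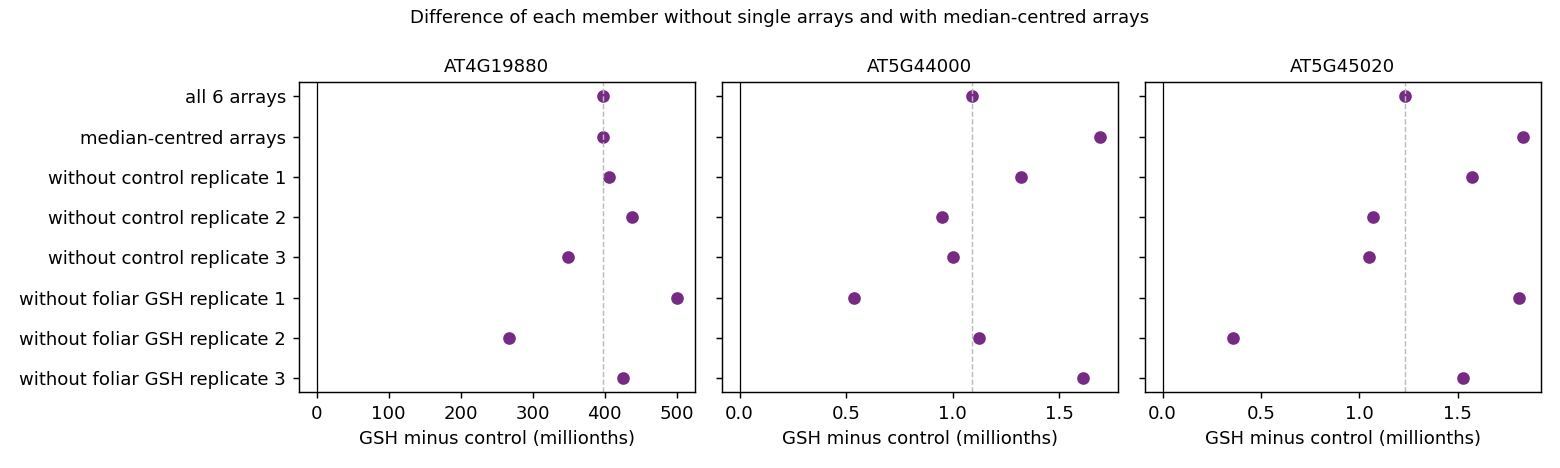
Difference of the group means, foliar GSH minus control, in millionths of a unit, for all 6 arrays, with each array centred on its median, and without each array in turn; the dashed line marks the value from all arrays. In these settings AT4G19880 stays between 268 and 500.0, while AT5G45020 is 0.359 without foliar GSH replicate 2. Quantile normalization is not drawn, and there AT4G19880 differed by 227, AT5G44000 by -0.639 and AT5G45020 by 0.

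AT5G44990, a further Arabidopsis locus of the same class that is not among the listed genes, had a dim probe with a mean of 5.60, under the lower quartile. Its controls stood at -0.766, 0.928 and -0.161 millionths from their mean. The foliar GSH replicates stood at 0.898, 5.04 and 0.703 millionths. Replicate 2 was the highest array again, and the groups overlapped. The difference was 2.21 millionths (SE 1.37, n = 3 each), and it was 0.800 without foliar GSH replicate 2.

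Foliar GSH replicate 2 was the highest array for AT4G19880, AT5G45020 and AT5G44990, and foliar GSH replicate 1 for AT5G44000. Over all probes, foliar GSH replicate 2 was highest at 15.3% and foliar GSH replicate 1 at 23.7%. Across the 6 arrays AT4G19880 had a Pearson r of 0.880 with AT5G45020 and of 0.900 with AT5G44990. Without foliar GSH replicate 2 these were 0.525 and 0.632. AT5G45020 and AT5G44990 had r of 0.842 over 6 arrays and -0.313 without that array, so their likeness rested on it. AT5G44000 had r of 0.367 with AT4G19880 and 0.290 with AT5G45020, and after subtraction of the group means these were -0.317 and -0.0852. The same subtraction left r of 0.889 between AT4G19880 and AT5G45020. The points share arrays and their levels, and 6 arrays are few, so these values are descriptions.

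The genes whose values over the 6 arrays were most like each family gene were taken from the probes paired with 1 gene, by Pearson r. For AT4G19880 they were AT2G26190 (r = 0.996), AT1G74530 (r = 0.989) and AT5G04480 (r = 0.987). AT2G26190 differed by 6.02 millionths (SE 1.92), AT1G74530 by 0.361 (SE 0.170) and AT5G04480 by 0.236 (SE 0.136). These 3 shared the order of the arrays and the separation of the groups with AT4G19880. A choice by r over the same 6 arrays favours such likeness, so it supports nothing. After quantile normalization all 3 had a difference of 0.

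For AT5G44000 the most alike were AT3G25160 (r = 0.982), AT1G36980 (r = 0.981) and AT1G35513 (r = 0.981). A high r did not fix the separation of the groups. At AT1G36980 all GSH arrays lay above all controls, by 0.007 millionths, while the groups of AT5G44000 overlapped. AT5G45020 was most like AT1G02305 (r = 0.997), AT5G14450 (r = 0.992) and AT5G11650 (r = 0.991). Of 13512 probes compared, 27, 28 and 29 reached r of 0.95 with AT4G19880, AT5G44000 and AT5G45020. The 3 sets of most alike genes had no gene in common.

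**Figure D4:**
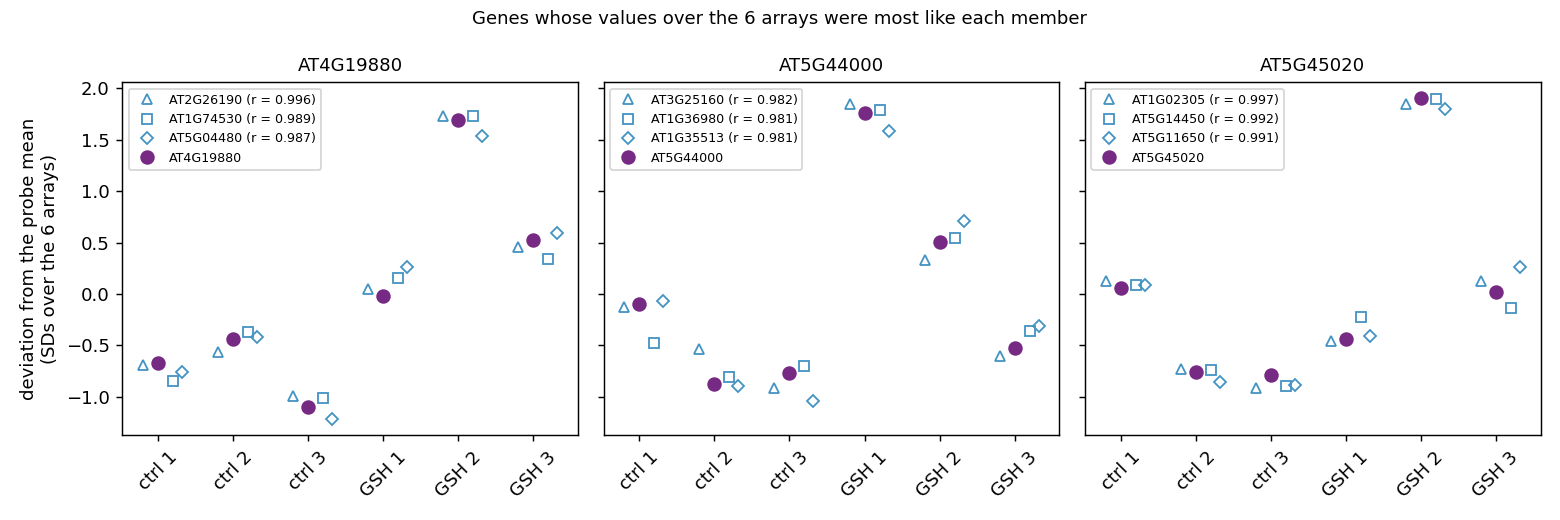
Deviation from the mean of each probe, in SDs over the 6 arrays (ctrl, control; GSH, foliar GSH), for each listed gene (filled circles) and the 3 genes with the highest Pearson r (open symbols, shifted sideways). The alike genes resemble each listed gene by the way they were chosen, though the order of the lower arrays can differ. AT4G19880 and AT5G45020 with theirs are highest in foliar GSH replicate 2, and AT5G44000 with its own is highest in foliar GSH replicate 1.

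Related enzymes were read from lists of other glutathione transferase classes, glutathione metabolism and quinone reduction. Of 84 genes on these lists 21 had a probe of their own, AT5G44990 among them. The mean after foliar GSH was higher at 14 and lower at 7, against 51.9% of all probes higher. Without foliar GSH replicate 1 the higher means were 10, where 47.7% of all probes were higher. With median-centred arrays they were 19, where 81.4% of all probes were higher. The median difference was 0.24 within-group SDs, and 0.05 over all probes. The groups did not overlap at 1 of the 21 genes, against 11.4% of all probes.

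That gene was GSTF13, a phi-class glutathione transferase, and it was lower after GSH. Its mean signal of 5.78 lay between the quartiles and exceeded 41.6% of probes. Its controls stood at 0.151, -1.34 and 1.19 millionths from their mean, and its GSH replicates at -5.00, -3.13 and -3.74. The difference was -3.96 millionths (SE 0.844, n = 3 each). It was -0.744 after quantile normalization, where the groups overlapped. GSTF4, the other phi-class gene with a probe of 13 listed, differed by 0.330 millionths (SE 0.668), and by -0.165 without control replicate 2 and -0.166 without foliar GSH replicate 2. The lambda-class transferases resemble the hydroquinone reductases in having a cysteine in the active site. Their 1 gene with a probe, of 3 listed, was GSTL3, at -0.0587 millionths (SE 0.139). No dehydroascorbate reductase, TCHQD, zeta-class or theta-class gene had a probe of its own.

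Tau-class transferases, the large plant class that conjugates GSH to foreign compounds, had 11 of 28 genes measured, 7 higher and 4 lower, all with overlapping groups. The first 4 in order of locus were GSTU18 at 0.775 millionths (SE 0.896), GSTU25 at 0.358 (SE 0.271), GSTU26 at -0.0953 (SE 0.657) and GSTU28 at -0.276 (SE 0.667). Leaving out single arrays turned the sign of GSTU26 and GSTU28. The range of the class was -0.911 to 1.10 within-group SDs.

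Quinone reductases, which reduce quinones with NAD(P)H instead of GSH, had 4 of 5 genes measured, all with a higher mean over the 6 arrays and with overlapping groups. Single arrays turned the sign of AT4G27270 and AT4G36750. NQR differed by 1.29 millionths (SE 1.17; 0.425 without control replicate 2) and AT5G58800 by 4.01 (SE 3.57). Without foliar GSH replicate 3 the difference of AT5G58800 was 0.552. AT4G27270 differed by 0.128 (SE 0.403), and by -0.134 without control replicate 3 and -0.0333 without foliar GSH replicate 1. AT4G36750 differed by 0.0230 (SE 0.310), and by -0.208, -0.0545 and -0.0460 without control replicate 3, foliar GSH replicate 1 and foliar GSH replicate 3.

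Glutathione reductases, which return oxidised glutathione to GSH, were the 2 measured genes of 11 listed for glutathione synthesis, reduction and breakdown. GR1 differed by 0.0137 millionths (SE 0.259), and by -0.168 without control replicate 1. The gene annotated as GR differed by -0.411 millionths (SE 0.676) and turned to 0.259 without foliar GSH replicate 2. After quantile normalization it differed by -19.1 millionths. No gene of the glutathione peroxidase list or of plastid quinone and tocopherol synthesis had a probe of its own.

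**Figure D5:**
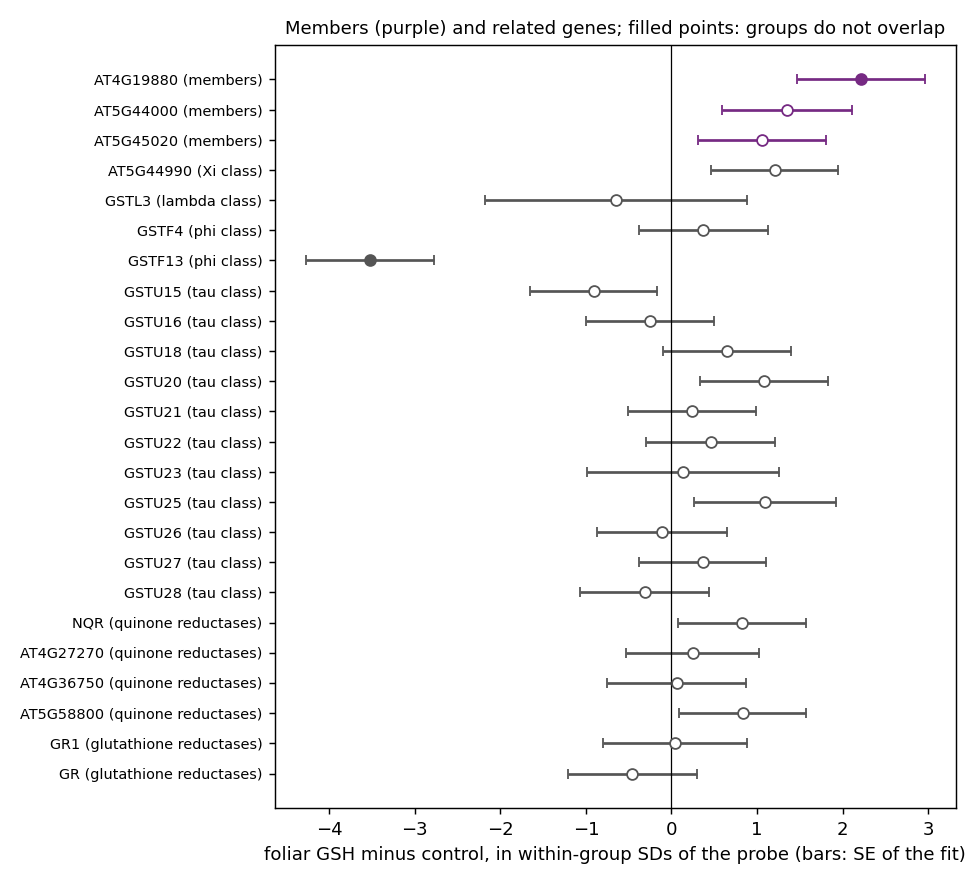
Difference of the group means, foliar GSH minus control, in within-group SDs of each probe, for the 3 listed genes (purple) and 21 related genes; bars are the SE of the fit, and filled points mark genes whose groups do not overlap. AT4G19880 at 2.21 and GSTF13 at -3.52 are the filled points.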

How the data were processed

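Biotinylated cRNA from root RNA was hybridised to single-colour arrays, 3 per group, per the labels' protocols. The authors deposited 1 table of log2-like values, used as deposited. The unit was taken from the range of the values. The background, summary and normalization steps and the log base were not given in the sources used here. Per the submitters' processing notes, R 2.7.2 was used. The table held 22810 probes, of which 64 controls of the array stayed out. Of the 22746 tested, 13513 had 1 gene in the platform annotation, 503 had several, and 8730 are not named by it here.

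The comparison used limma 3.58.1 under R 4.3.3 (functions lmFit and eBayes; prior degrees of freedom 0.83), Benjamini-Hochberg adjustment over all probes and a threshold of 0.05, with no filter on dim probes. SEs are those of this fit, in which eBayes moves the variance of each probe towards a value shared by all probes. At narrow probes the SE can thus exceed the spread of the arrays. For AT5G04480 it was 0.136 millionths, with a within-group SD of 0.0809, and for GSTL3 0.139, with 0.0906. Depth as counts does not apply to arrays, whose number limits the precision. Every list gene had 1 probe. GSTF13 was matched as ATGSTF13, and of 2 genes annotated as NQR the one beside AT3G27880 by gene ID was kept. Named genes were the family, all measured genes of lists with up to 6, the first 4 by locus of the tau class, the 3 most correlated with each family gene, and the measured cell type markers. Members and lists were chosen with earlier results of these data known. The steps were tested on simulated data. Alternatives were quantile normalization, median-centring, brighter probes, a replicate block, arrays left out singly, robust trended variance, Welch's test, probes divided by their SD, an adjusted p of 0.10, and averaging the probes of a gene.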

Additional observations from a re-analysis of the deposited data

How the results depend on the processing

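The number of probes called, 0 by limma, was also 0 with arrays left out singly, after median-centring, with robust trended variance, and with each probe divided by its SD. Welch's test also called 0, with 1012 probes at an unadjusted p under 0.05. Tested alone, probes above the median signal gave 4 calls, and there were 4 at an adjusted p under 0.10. Quantile normalization gave 27 calls among the 2688 probes that still varied, and there the adjustment ran over those probes only. The groups then did not overlap at 55 probes, or 0.242% of all. That setting gave -0.639 millionths for AT5G44000 and 0 for AT5G45020. Of the related genes 2 were then higher and 0 did not overlap, where 4.56% of all probes were higher. With the replicate number as a block 1 probe was called, none of the 3 family genes. Each number holds 1 array of each group, so this block could not change their differences of 398, 1.09 and 1.23 millionths. For AT4G19880, AT5G44000 and AT5G45020 the SEs were 98.9, 0.408 and 0.967 millionths with the block, against 133, 0.615 and 0.875 without it. Deviations from the group means correlated at -0.0214, -0.0156 and 0.0992 between arrays of the same number, and 2 of 6 arrays correlated best with their own number, so the numbers were not taken to pair the arrays. Groups did not overlap at 2588 probes, at 1499 of those above the median signal, and at 4534 to 5287 without single arrays, where 3 arrays are set against 2. Of the related genes 14 had a higher mean, 19 with median-centred arrays and 10 to 14 without single arrays. Over all probes the shares were 51.9%, 81.4% and 47.7% to 53.9%. The groups did not overlap at 1 related gene, at 2 with median-centred arrays, and at 1 to 3 without single arrays. Over all probes that held at 11.4%, 9.94% and 19.9% to 23.2%. Of 184 values of the other 23 named genes, cell type markers left out, 19 had the other sign under these settings, in 8 genes. A fall to 0, as for most of these genes after quantile normalization, was not counted as another sign. By more than 1 within-group SD 24 of the values moved, 13 of them in quantile normalization. Averaging the probes of a gene changed nothing, since each list gene had 1 probe.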
